A study of Arabidopsis thaliana with 30 samples.

Results

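The transcripts of 6 Arabidopsis thaliana genes of photorespiration were followed in rosette leaves that were moved from high CO2 to air. The genes were picked by name, for their place in the pathway, when earlier results of these data were known. They code for the T protein of glycine decarboxylase (AT1G11860), its H protein (AT2G35120 and AT1G32470), hydroxypyruvate reductase (HPR), glycerate kinase (AT1G80380) and the plastid glycolate and glycerate transporter (LrgB). Each of the 6 had exactly 1 probe set of its own, among 22746 probe sets tested and 13356 genes with a probe set of their own. The arrays compared Col0 plants with cat2-1 plants, called cat2 here, which are altered in catalase. How the cat2-1 allele was made was not given in the sources used here.

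Photorespiration starts when Rubisco fixes oxygen in place of CO2. The phosphoglycolate so formed is turned back into phosphoglycerate by a pathway that runs through chloroplast, peroxisome and mitochondrion. High CO2 lowers the flow through it. The oxidation of glycolate in the peroxisome releases hydrogen peroxide, and CAT2 codes for the main catalase that removes it in Arabidopsis leaves. LrgB, also known as PLGG1, moves glycolate out of the chloroplast and glycerate in. Glycine decarboxylase in the mitochondrion turns glycine into a one-carbon unit, CO2 and ammonia, where the H protein carries the lipoyl arm with the intermediate and the T protein releases ammonia and passes the carbon to tetrahydrofolate. HPR in the peroxisome reduces hydroxypyruvate to glycerate, and glycerate kinase in the chloroplast returns it to the Calvin-Benson cycle as phosphoglycerate.

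Both genotypes grew in soil for 5 weeks at 3000 ppm CO2 in days of 8 h light and 16 h dark. The hCO2 groups were harvested under these conditions. The other plants were moved to air with 400 ppm CO2 and harvested 2 or 4 days later, with short days kept in SD2 and SD4. The LD2 and LD4 groups had long days, with 16 h light and 8 h dark, from the move onward. All leaves were cut 7 h into the light. The 10 groups, Col0 and cat2 in each of the 5 conditions, had 3 arrays each, and each array came from its own pool of leaves cut from several plants, which makes the 3 of a group biological replicates. A treatment label of the Col0 hCO2 arrays reads 300 ppm where the growth protocol reads 3000 ppm, and the protocol was followed. No group had long days at high CO2, so a difference between LD2 or LD4 and hCO2 changes air and day length together, and the 2 cannot be told apart in it. CAT2 had no probe set of its own in the annotation used here, so the level of the mutated gene was not checked.

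The values are log2 signals, on which 1 unit is a 2-fold change. The words rose and fell are kept for differences where limma, fitted to all 30 arrays and adjusted by the Benjamini-Hochberg method over all probe sets of a comparison, gave an adjusted p below 0.05. Values after a difference are its standard errors, those after a level are the SD of 3 arrays. The leaf label was checked with RCA (Rubisco activase), the only 1 of 10 fixed leaf markers with a probe set of its own, which lay between 13.87 and 14.20 on all arrays. The root marker PYK10 lay between 3.47 and 3.94, near the bottom of the signals on the arrays. Array medians lay between 6.15 and 6.30, and the 25S ribosomal RNA control differed between groups. Its group mean was between 6.38 and 6.72 in Col0, 6.64 in cat2 at hCO2 and between 7.27 and 7.97 in cat2 in air. In whole leaves fewer cells of a type and less RNA per cell cannot be told apart.

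Over 27 comparisons the 6 genes gave 162 tests, of which 8 were called, or 4.94%, where 7.65% of all tests over all probe sets were called. The median absolute difference of the 6 was above that of all probe sets in 11 of the 27 comparisons, among them all 4 of long against short days (0.15 to 0.23 against 0.13 to 0.14). HPR had 6 of the calls and the T protein gene AT1G11860 had 2, and the other 4 genes had none. Of the 48 tests within cat2 6 were called, 11 having an unadjusted p under 0.05, where 11.9% of all tests within cat2 were called, a share near that of the 6 genes. Of the 48 within Col0 none was called by limma, 6 having an unadjusted p under 0.05, where 9.70% of all tests within Col0 were called. Without Col0 LD4 replicate 2 there were 6 calls within Col0, and the share of all tests called in that fit is not given here. No called difference was above 1.43-fold. The plot of signals by array shows these levels, and the map of differences shows where the 8 calls lie.

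**Figure D1:**
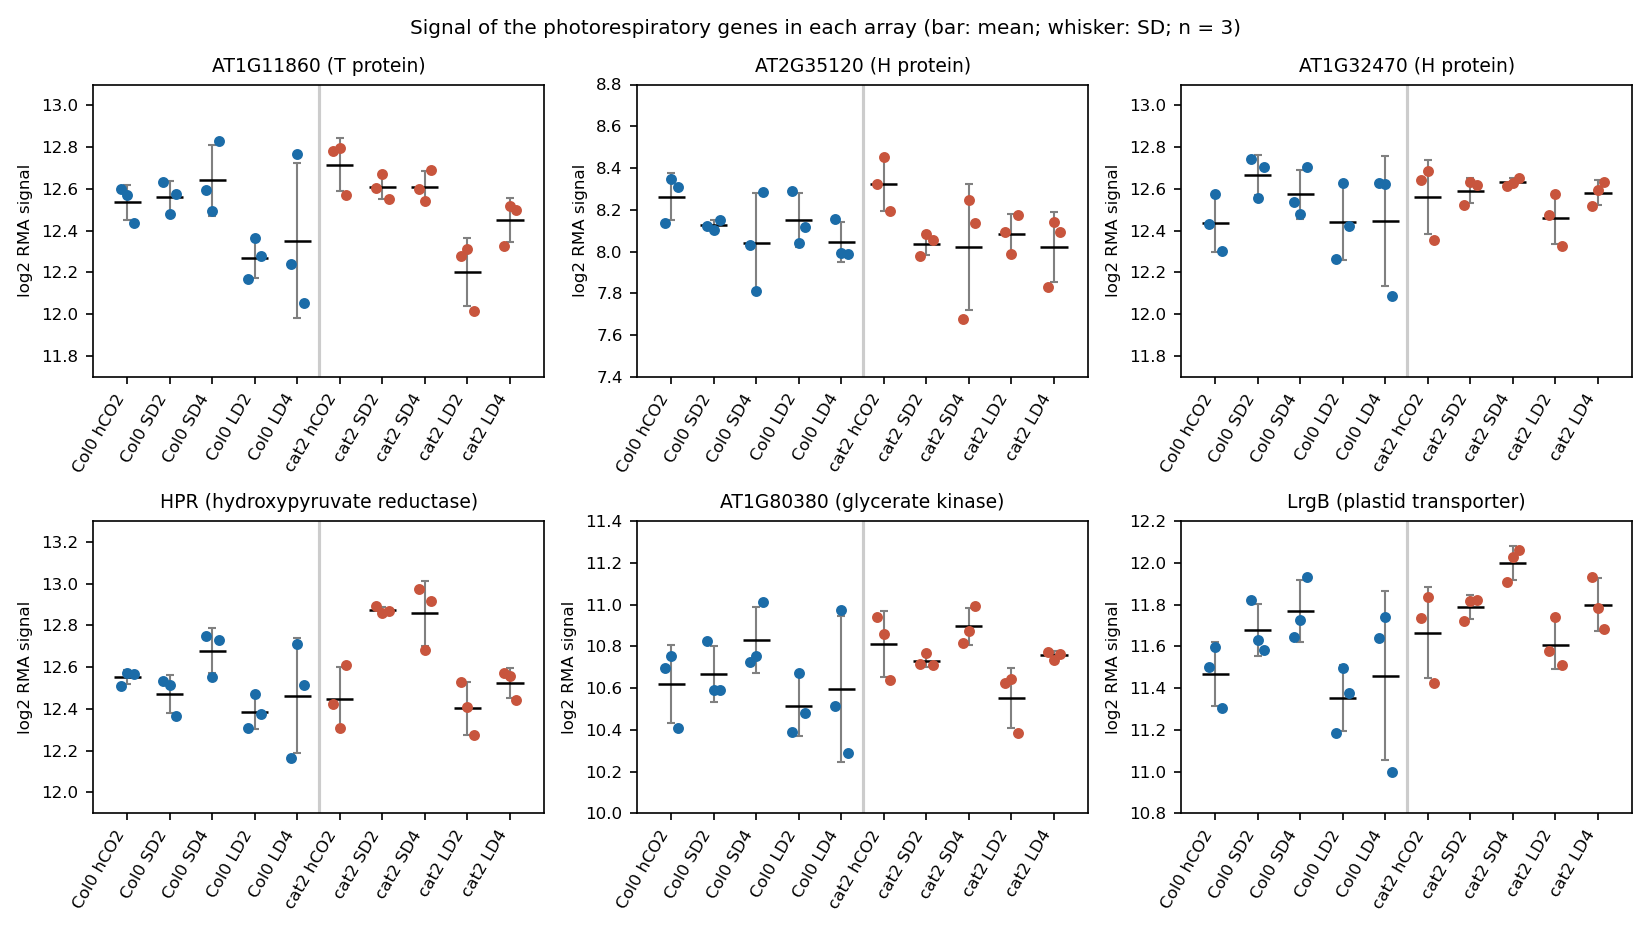
Log2 signal of the 6 genes in each of the 30 arrays, 1 panel a gene, with groups on the horizontal axis (blue Col0, red cat2). Points are arrays, bars are group means and whiskers the SD of 3 arrays, and every panel spans the same number of log2 units. HPR stands highest in cat2 SD2 (12.87) and cat2 SD4 (12.86), and AT1G11860 stands lowest in cat2 LD2 (12.20).

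**Figure D2:**
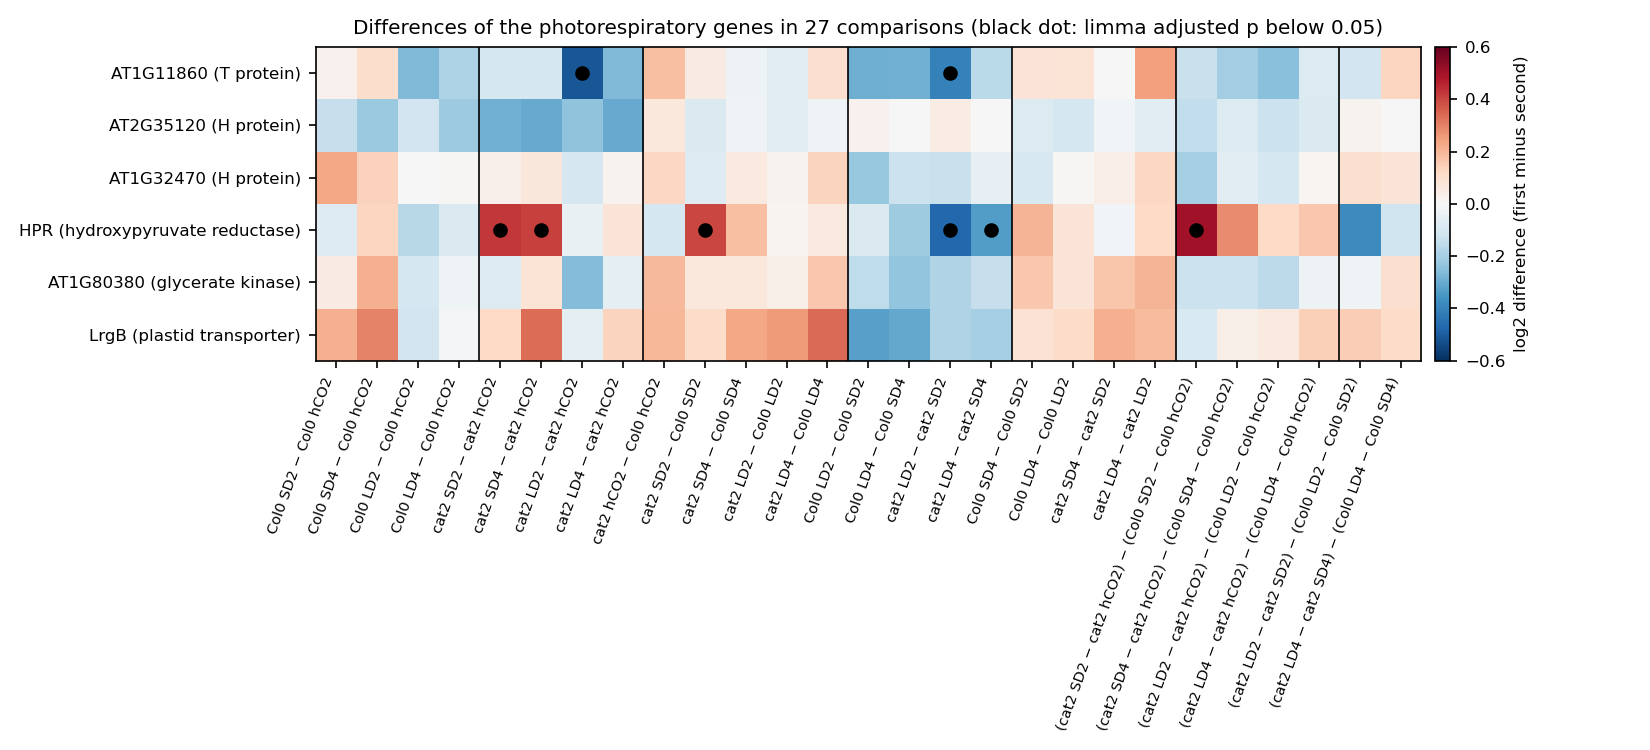
Log2 difference (first group minus second, colour) of the 6 genes in 27 comparisons, where black dots mark a limma adjusted p below 0.05. Of the 8 dots, 6 lie in the HPR row and 2 in the AT1G11860 row.

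HPR, the peroxisomal reductase, was higher in cat2 in air with short days than in the cat2 plants at hCO2. Its signals in cat2 at hCO2 were 12.42, 12.31 and 12.61. After 2 days of air in short days they were 12.89, 12.86 and 12.87, and after 4 days 12.98, 12.68 and 12.92. All 6 short-day arrays lay above all 3 of hCO2. Without overlap, 12.2% of all probe sets lay higher than hCO2 at SD2 and 12.0% at SD4. HPR rose by 0.43 ± 0.11 at day 2 (1.34-fold, adjusted p = 0.00693, limma), where 17.7% of all probe sets were called and 7.57% were called as higher. It rose by 0.41 ± 0.11 at day 4 (1.33-fold, adjusted p = 0.0134, limma), where 12.4% were called and 6.07% as higher. In both comparisons HPR was the only 1 of the 6 genes that was called. Without cat2 hCO2 replicate 2, the lowest of its group, neither rise was called (0.36, adjusted p = 0.0578, and 0.34, adjusted p = 0.0903). The rise at day 4 was also not called without cat2 SD4 replicate 1 or 3, with only the groups compared in the fit (adjusted p = 0.105), or with the 25S control as a covariate (adjusted p = 0.135). A further probe set, which lists HPR together with AT5G05370, had lower cat2 means at SD2 (9.23) and SD4 (9.30) than at hCO2 (9.57). Which of these genes it measures was not tested.

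In Col0 no change of HPR was called for the same move to air. The arrays at hCO2 gave 12.51, 12.57 and 12.57. Those at SD2 gave 12.54, 12.51 and 12.37, and those at SD4 gave 12.75, 12.55 and 12.73. The groups overlap at both days, with differences of −0.08 ± 0.11 (adjusted p = 0.672, limma) and 0.13 ± 0.11 (adjusted p = 0.665). The difference between the genotypes in this response was itself tested. At SD2 it was 0.50 ± 0.15 (95% interval 0.19 to 0.82, adjusted p = 0.0497, limma), where 6.01% of all probe sets were called. This call lies at the threshold and was kept in 1 of 12 fits that left out 1 array of the groups compared, that without cat2 hCO2 replicate 3, and in 6 of 12 other fits (adjusted p up to 0.313). At SD4 the difference of responses was 0.28 ± 0.15 (95% interval −0.03 to 0.60, adjusted p = 0.839).

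Between the genotypes a difference in HPR was called at SD2 only, among the 5 conditions tested. There the 3 cat2 arrays lay above the 3 Col0 arrays, as they did for 14.9% of all probe sets. HPR was higher in cat2 by 0.40 ± 0.11 (1.32-fold, adjusted p = 0.0144, limma), where 14.2% of all probe sets were called and 6.62% as higher. The difference was −0.10 ± 0.11 at hCO2 (adjusted p = 0.906), 0.18 ± 0.11 at SD4 (adjusted p = 0.778), 0.02 ± 0.11 at LD2 and 0.06 ± 0.11 at LD4. The 25S control was also higher in cat2 at SD2 (7.56 ± 0.57) than in Col0 (6.70 ± 0.44). With the 25S control as a covariate the HPR difference was no longer called (adjusted p = 0.0710), and its part in the result was otherwise not tested. The call was lost as well without Col0 SD2 replicate 3 and without cat2 SD2 replicate 1 (highest adjusted p = 0.0665).

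HPR was lower in cat2 in long days than in short days. The cat2 arrays gave 12.53, 12.41 and 12.27 at LD2 and 12.57, 12.56 and 12.44 at LD4, all of them below every short-day array of the same day. Among all probe sets 15.3% lay lower in long days without overlap at day 2, and 12.5% at day 4. HPR fell by 0.47 ± 0.11 between SD2 and LD2 (1.38-fold lower, adjusted p = 0.00345, limma), where 16.1% of all probe sets were called and 7.36% as lower. This fall was called in all 6 fits without 1 array and in all 12 other fits. Between SD4 and LD4 it fell by 0.34 ± 0.11 (1.26-fold lower, adjusted p = 0.0430), where 11.8% were called and 6.25% as lower, a call kept in 1 of 6 fits without 1 array, that without cat2 SD4 replicate 2, and in 6 of 12 other fits.

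In Col0 HPR gave 12.31, 12.47 and 12.37 at LD2, and 12.17, 12.71 and 12.51 at LD4. These overlap with the short-day arrays of the same day. The differences from short days were −0.09 ± 0.11 at day 2 (adjusted p = 0.702, limma) and −0.21 ± 0.11 at day 4 (adjusted p = 0.220). The day-length difference of cat2 minus that of Col0 was −0.38 ± 0.15 at day 2 (95% interval −0.70 to −0.07, adjusted p = 0.134) and −0.12 ± 0.15 at day 4 (adjusted p = 0.882), so a difference between the genotypes here did not pass the test. Against hCO2, HPR in long days was not called in either genotype. In cat2 it differed by −0.04 ± 0.11 at LD2 and 0.08 ± 0.11 at LD4, and in Col0 by −0.17 ± 0.11 and −0.09 ± 0.11.

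**Figure D3:**
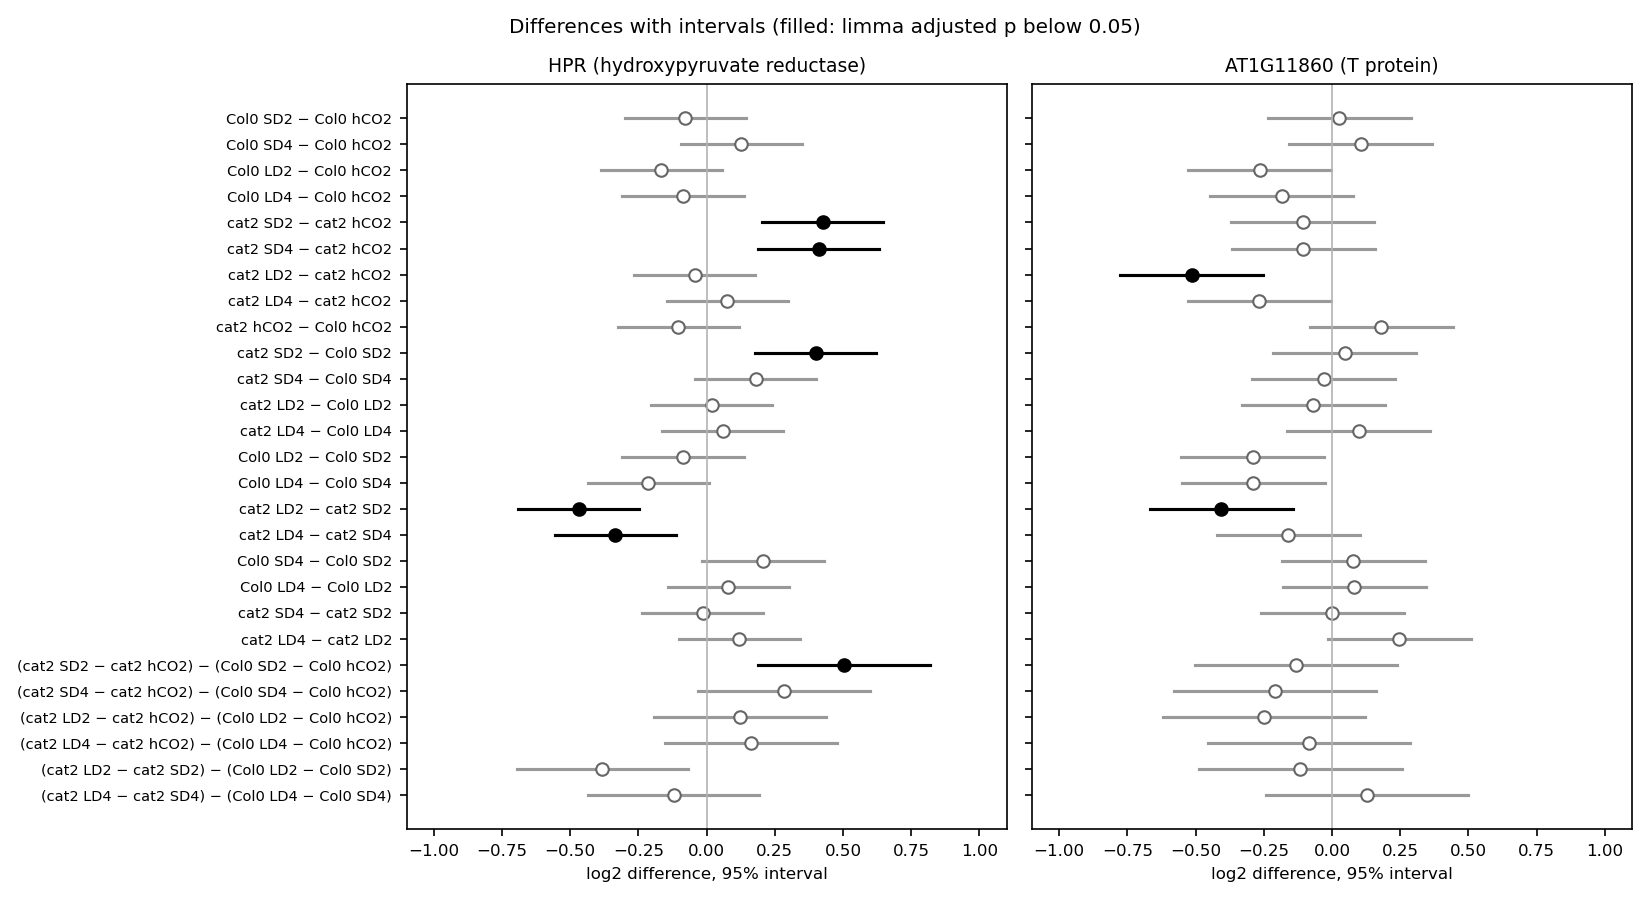
Log2 differences of HPR (left) and AT1G11860 (right) in the 27 comparisons, with 95% intervals as bars and called comparisons filled. HPR has 6 filled points and AT1G11860 has 2, both below 0.

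The T protein gene AT1G11860 was lowest in long days in both genotypes. Its cat2 arrays gave 12.78, 12.79 and 12.57 at hCO2, and 12.61, 12.67 and 12.55 at SD2. At LD2 they gave 12.28, 12.31 and 12.02, below all arrays of the other 2 groups. Without overlap, 18.0% of all probe sets lay lower at LD2 than at hCO2 and 15.3% than at SD2. AT1G11860 fell by 0.51 ± 0.13 between hCO2 and LD2 (1.43-fold lower, adjusted p = 0.00589, limma), where 20.2% of all probe sets were called and 11.2% as lower. That call was kept in all 6 fits without 1 array and in all 12 other fits. Between SD2 and LD2 it fell by 0.41 ± 0.13 (1.33-fold lower, adjusted p = 0.0288, limma), where 16.1% of all probe sets were called and 7.36% as lower. Without cat2 LD2 replicate 3, its lowest array, that difference was −0.31 (adjusted p = 0.160), and it was also not called without cat2 SD2 replicate 1 or 2, or in the fit that took BioB as covariate (adjusted p = 0.0587).

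At day 4 the cat2 arrays of AT1G11860 gave 12.60, 12.54 and 12.69 in short days and 12.33, 12.52 and 12.50 in long days. These do not overlap, but 12.5% of all probe sets lay lower in long days without overlap. The difference of −0.16 ± 0.13 was not called (adjusted p = 0.503, limma). Against hCO2 the LD4 arrays differed by −0.27 ± 0.13 (adjusted p = 0.177), with no overlap, where 13.7% of all probe sets lay lower without overlap. With the 25S control as a covariate this difference was −0.44 and called (adjusted p = 0.0326), and it was also called with both kinds of array weights (−0.30, adjusted p = 0.00409, and −0.28, adjusted p = 0.0334). The first kind, an estimate that did not converge, gave cat2 hCO2 replicate 1, in the group compared, a weight of 25.9. Under both kinds more of all probe sets were called in this comparison than without weights. In Col0 the arrays gave 12.60, 12.57 and 12.44 at hCO2, 12.63, 12.48 and 12.57 at SD2, and 12.59, 12.50 and 12.83 at SD4. They gave 12.17, 12.36 and 12.28 at LD2, below all of those. Of all probe sets, 15.3% lay lower at LD2 without overlap than at hCO2 and 15.4% than at SD2. At LD4 the Col0 arrays of AT1G11860 gave 12.24, 12.77 and 12.05, which overlap with every other Col0 group. The Col0 differences between long and short days were −0.29 ± 0.13 at both days (adjusted p = 0.150 each). No difference between the genotypes in AT1G11860 was called without weights in any of the 5 conditions (from −0.07 to 0.18, lowest adjusted p = 0.790). With the first kind of weights it was called higher in cat2 at hCO2 (0.22, limma adjusted p = 0.0174). There 4176 of all probe sets were called higher, against 2 without weights.

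Both H protein genes stayed without a call in all 27 comparisons of the fit without weights. Array weights gave cat2 hCO2 replicate 1 a weight of 25.9. With them AT2G35120 was called lower in cat2 at SD2, SD4, LD2 and LD4 than at hCO2 (limma adjusted p from 0.00552 to 0.0174). AT1G32470 was called higher in Col0 at SD2 and lower in cat2 at LD2 than at hCO2, and higher in cat2 than in Col0 at hCO2. Weights estimated gene by gene kept the SD2 calls only. AT2G35120 had its highest group means at hCO2, 8.32 ± 0.13 in cat2 and 8.26 ± 0.11 in Col0, and all 8 air groups lay lower, from 8.02 to 8.15. Its differences from hCO2 were between −0.11 and −0.22 in Col0 (lowest adjusted p = 0.279, limma) and between −0.24 and −0.30 in cat2 (adjusted p from 0.107 to 0.185). In cat2 all arrays of SD2, LD2 and LD4 lay below those of hCO2, while those of SD4 (7.68, 8.24 and 8.14) overlapped with them. Of all probe sets, 18.6% lay lower than hCO2 without overlap at SD2, 18.0% at LD2 and 13.7% at LD4. Between long and short days AT2G35120 differed by at most 0.05. The second H protein gene, AT1G32470, had the smallest span of group means of the 6, 0.23, from 12.44 ± 0.14 in Col0 at hCO2 to 12.67 ± 0.10 in Col0 at SD2. That pair of groups gave its largest difference, 0.23 ± 0.12 (adjusted p = 0.195), and its long-day means were lower than its short-day means in all 4 comparisons (−0.05 to −0.23).

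Glycerate kinase, the last step of the pathway, was called in no comparison of the fit with all arrays and no weights. With the same array weights (25.9 for cat2 hCO2 replicate 1) it was called lower in cat2 at SD2 and LD2 than at hCO2. It was also called higher in cat2 than in Col0 at hCO2. With these weights 5735 of 22746 probe sets were called lower in cat2 at SD2 than at hCO2 and 5504 at LD2. For cat2 against Col0 at hCO2, 4176 were called higher, against 2 without weights. Weights estimated gene by gene kept the LD2 call only. AT1G80380 had its highest mean at SD4 in both genotypes, 10.90 ± 0.09 in cat2 and 10.83 ± 0.16 in Col0, and its lowest at LD2, 10.55 ± 0.14 and 10.51 ± 0.15. Its long-day means were below its short-day means by 0.15 and 0.24 in Col0 at days 2 and 4 and by 0.18 and 0.14 in cat2 (lowest adjusted p = 0.283, limma). The cat2 arrays of long days lay below those of short days at both days without overlap, and those of Col0 overlapped. In cat2 15.3% of all probe sets lay lower without overlap at day 2 and 12.5% at day 4. The mean of AT1G80380 was above that of Col0 in cat2 in all 5 conditions, by 0.04 to 0.19 (lowest adjusted p = 0.633).

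LrgB, the transporter, spanned the widest range of group means of the 6, 0.65, again without a call. Its highest group was cat2 SD4 with 11.91, 12.03 and 12.06. Its lowest was Col0 LD2 with 11.18, 11.50 and 11.38. At SD4 all arrays lay above those of hCO2 in each genotype, as they did for 11% of all probe sets in Col0 and 12% in cat2. The LrgB differences were 0.30 ± 0.14 in Col0 (adjusted p = 0.338, limma) and 0.33 ± 0.14 in cat2 (adjusted p = 0.140). The cat2 difference was called with actin (0.38, adjusted p = 0.00703) or BioB (0.34, adjusted p = 0.0373) as a covariate, with both kinds of array weights (0.29 and 0.31) and without Col0 LD4 replicate 3 (0.33, adjusted p = 0.0479). With the 25S control as a covariate it was 0.19 and not called, and without cat2 hCO2 replicate 3 it was 0.21 (adjusted p = 0.405). The array weights did not converge and put 25.9 on cat2 hCO2 replicate 1, in the group compared. Under both kinds of weights more of all probe sets were called in this comparison than without weights. The cat2 means were above those of Col0 in all 5 conditions, by 0.20 at hCO2, 0.11 at SD2, 0.23 at SD4, 0.26 at LD2 and 0.34 at LD4, each ± 0.14 (adjusted p from 0.327 to 0.850). With the array weights that did not converge, the difference at hCO2 was called (0.26, limma adjusted p = 0.00962). There 4176 probe sets were called higher, against 2 without weights. In long days LrgB was lower than in short days by 0.33 and 0.31 in Col0 and by 0.18 and 0.20 in cat2 (adjusted p from 0.155 to 0.466). With the actin control as a covariate, 3 of these 4 day-length differences were called (−0.33, −0.35 and −0.35, adjusted p from 0.0138 to 0.0165), the exception being Col0 at day 2.

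In long against short days the differences of AT1G11860, AT1G32470, HPR, AT1G80380 and LrgB were below 0 in all 4 comparisons, while AT2G35120 lay between 0.00 and 0.05. The median over the 6 genes was −0.19 in Col0 and −0.18 in cat2 at day 2, and −0.23 and −0.15 at day 4. Over all probe sets it was 0.00, 0.03, 0.01 and 0.03 in the same order. Of the 24 tests 3 were called, where 13.3% of all tests were. The 6 genes were measured on the same arrays and are not independent of each other. Between day 4 and day 2 none of 24 tests was called by limma or had an unadjusted p under 0.05, where 1.16% of all tests were called.

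Air in Col0 gave no call by limma in 24 tests (12.6% of all tests were called), 2 having an unadjusted p under 0.05, LrgB at SD4 and AT1G11860 at LD2. Air in cat2 gave 3 calls in 24 (16.2%), the genotype gave 1 in 30 (3.55%), the difference of genotypes in the response to air 1 in 24 (1.80%), and that in the response to day length none in 12 (4.29%), 1 having an unadjusted p under 0.05. The air groups of a genotype share their hCO2 arrays, so their differences from hCO2 are not independent. In the order of the 10 group means, the arrays of every neighbouring pair overlapped for each of the 6 genes.

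Col0 LD4 bears on the day-4 statements about day length in Col0 and on how the genotypes differ in them. It enters the day-length differences of cat2 only through the shared estimate of spread. For 5 of the 6 genes, all but AT2G35120, Col0 LD4 had the largest SD of the 10 groups, from 0.28 for HPR to 0.40 for LrgB. Replicate 2 lay above the group mean for 5 of the 6 genes, by 0.41 for AT1G11860 and 0.38 for AT1G80380. Replicate 3 lay below it for 5, by −0.46 for LrgB and −0.36 for AT1G32470. Replicate 3 also had a 25S control of 5.50 against 6.61 and 7.03 in replicates 1 and 2, a BioB spike-in of 7.35 against 7.87 and 7.89, and an actin 3′ minus 5′ difference of 2.50 against 1.89 and 2.03.

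With all arrays 13.5% of all probe sets were called between LD4 and SD4 of Col0, 6.35% as lower, and none of the 6 genes. Without Col0 LD4 replicate 2, long days at day 4 in Col0 were called lower for 4 genes, AT1G11860 (−0.50, adjusted p = 0.00265, limma), HPR (−0.34, adjusted p = 0.0373), AT1G80380 (−0.43, adjusted p = 0.0187) and LrgB (−0.45, adjusted p = 0.0474). AT1G11860 was then also called lower in Col0 at LD2 than at SD2 (−0.29, adjusted p = 0.0480) and at LD4 than at hCO2 (−0.39, adjusted p = 0.0123). The share of all probe sets called without Col0 LD4 replicate 2 is not given here, and the 13.5% and 6.35% are for all arrays. Without replicate 3 none of the 6 was called between LD4 and SD4 of Col0 (from −0.24 to 0.05, lowest adjusted p = 0.256). A lower level of these transcripts in Col0 at LD4 than at SD4 thus rests on which arrays are kept.

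**Figure D4:**
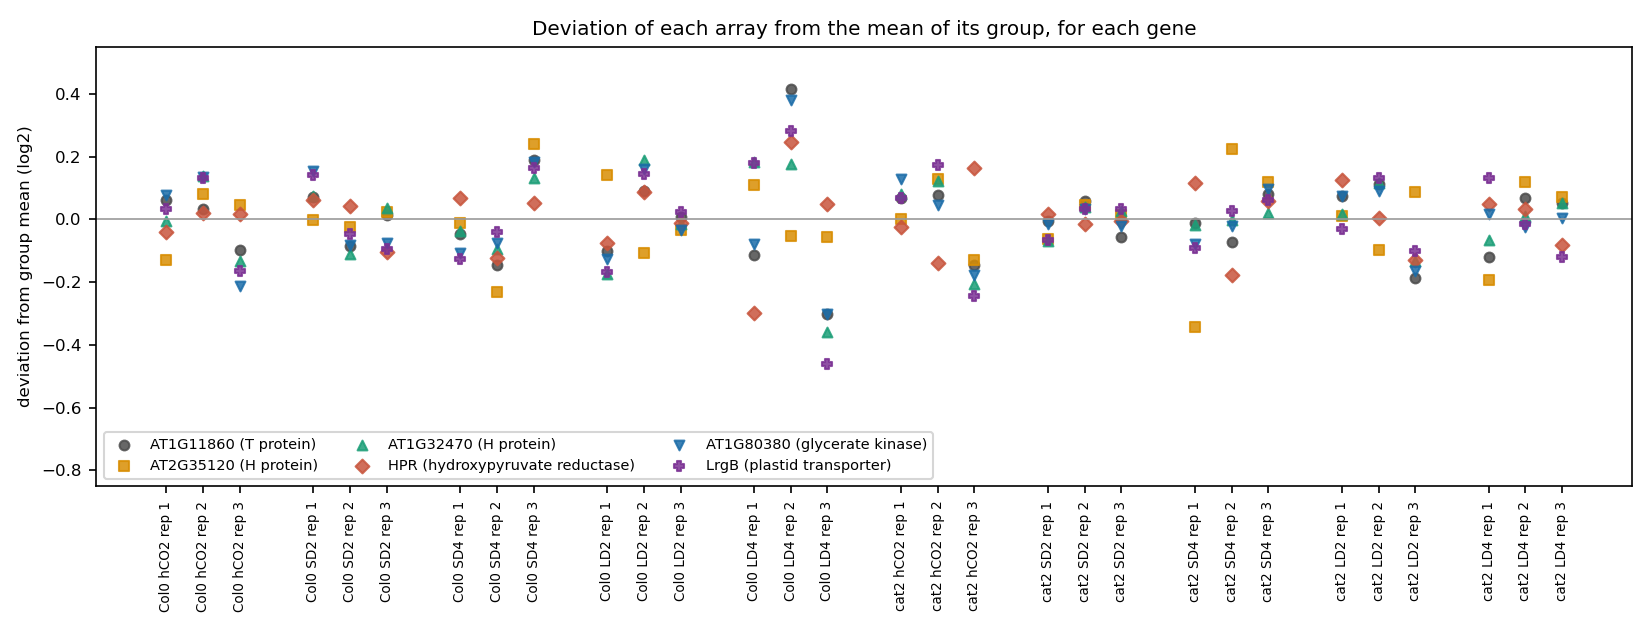
Deviation of each array from the mean of its group (log2, vertical axis) for the 6 genes, with the 30 arrays on the horizontal axis. In Col0 LD4 the points of replicate 2 reach 0.41 and those of replicate 3 reach −0.46.

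Within groups 4 of the genes moved together from array to array. Over the 30 deviations from group means, Pearson's r was 0.904 between AT1G11860 and AT1G80380, 0.883 between AT1G32470 and LrgB, 0.844 between AT1G80380 and LrgB and 0.807 between AT1G32470 and AT1G80380. HPR had r between −0.390 and 0.390 with the other genes and AT2G35120 between −0.390 and 0.218. The deviations of LrgB went with the actin 3′ minus 5′ difference (r = −0.807) and with the BioB spike-in (r = 0.705), and those of HPR less so (r = 0.258 and −0.311). These values describe arrays that share their RNA and hybridisation.

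Over the 10 group means, the genes most like HPR among 6385 candidates were EX1 (EXECUTER1, a plastid protein of singlet oxygen signalling; r = 0.956, and 0.892 over the 30 arrays), AT3G52220 (0.951, 0.730) and AT4G03200 (0.937, 0.824). For AT1G11860 they were AT2G43630 (0.982, 0.886), SBPASE (sedoheptulose-bisphosphatase of the Calvin-Benson cycle; 0.978, 0.919) and AT5G66530 (0.965, 0.885). For LrgB they were CYTC6A (a cytochrome of the thylakoid lumen; 0.978, 0.874), AT3G25410 (0.950, 0.900) and AT3G22150 (0.949, 0.877). For AT1G80380 they were CHL (chloroplast lipocalin; 0.958, 0.871), ATAB2 (0.924, 0.820) and AT4G17740 (0.923, 0.837). The 2 H protein genes had different neighbours, AT3G56160, AT5G08340 and AT5G59250 for AT1G32470 (0.962, 0.951 and 0.936), and AT1G01630, AT1G76550 and AT2G40280 for AT2G35120 (0.950, 0.945 and 0.929). These are the highest of many correlations.

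Of 25 other photorespiration genes on a list, 2 were measured by their own probe set, and their 54 tests gave 1 call (1.85%, where 7.65% of all tests were called). HPR2, a cytosolic hydroxypyruvate reductase, gave 9.63, 9.87 and 9.88 in cat2 at SD4 and 10.17, 10.04 and 9.97 at LD4, with no overlap. It rose by 0.27 ± 0.08 (adjusted p = 0.0306, limma). In this comparison 11.8% of all probe sets were called, 5.51% as higher, and 14.3% lay higher without overlap. HPR fell by 0.34 in the same comparison, a call kept in 1 of 6 fits without 1 array and in 6 of 12 other fits. BASS6, a plastid glycolate transporter, had a lower mean in cat2 than in Col0 in all 5 conditions (−0.22 to −0.37), with no call.

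Among 23 Calvin-Benson cycle genes 4 were measured, and 12 of their 108 tests were called (11.1% against the same 7.65%), all as lower. SBPASE had 7 of these calls, PGK2 3, PRK 1 and RCA 1. RCA, also the leaf marker, fell in Col0 between hCO2 and SD2 (by 0.16 ± 0.06, adjusted p = 0.0442, limma). In long against short days RCA had differences of 0.16, 0.07, 0.07 and 0.02, without a call. SBPASE fell between short and long days in Col0 at day 2 (by 0.35 ± 0.11, adjusted p = 0.0310, limma) and day 4 (by 0.39 ± 0.11, adjusted p = 0.0136) and in cat2 at day 2 (by 0.44 ± 0.11, adjusted p = 0.00477). PGK2 (phosphoglycerate kinase; by 0.31 ± 0.10) and PRK (phosphoribulokinase; by 0.30 ± 0.10) fell in that cat2 comparison too, the one in which HPR and AT1G11860 fell. Against hCO2, SBPASE fell in LD2 and LD4 of both genotypes (by 0.34 to 0.57), and PGK2 fell in cat2 at LD2 (by 0.40). PGK2 was also called lower in cat2 than in Col0 at SD2 (−0.34).

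Of 23 antioxidant enzyme genes 5 were measured, with 6 calls as higher and 8 as lower in 135 tests (10.4% against 7.65%). GR1 (glutathione reductase) was called higher 3 times, among them in Col0 in long against short days at day 2 (0.91 ± 0.15, adjusted p = 0.000195, limma) and day 4 (0.58 ± 0.15), and lower 2 times. MDAR2 (monodehydroascorbate reductase) was called higher 2 times, in cat2 at SD2 against hCO2 (0.67 ± 0.17) and against Col0 (0.66 ± 0.17). Of the ascorbate peroxidases, SAPX of the stroma was called higher once and lower 3 times, and TAPX of the thylakoid was called lower 3 times. FAMA, the only 1 of 6 guard cell markers measured, was lower in cat2 at SD2, SD4 and LD2 than at hCO2 and in Col0 at SD2 (by 0.43 to 0.51 ± 0.15). Its part in the values of the 6 genes was not tested. The senescence markers WRKY53 and SAG101 and the root marker PYK10 had no call by limma, unlike the leaf marker RCA with its 1 call.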

How the data were processed

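Leaf RNA was hybridised to 30 Affymetrix ATH1 arrays, 1 for each sample. The deposited values, used unchanged, are log2 signals of 22810 probe sets. RMA and affy are named in the submitters' processing notes, and their versions were not given in the sources used. RMA sets the distributions of the arrays equal, so a change shared by most transcripts would not show. Tests covered 22746 probe sets, without the 64 controls. Genes were named from probe sets with exactly 1 gene in the annotation given (13513, with 503 holding several genes and 8730 unlisted).

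Limma 3.58.1 in R 4.3.3 estimated 1 mean per group, 10 in all, without covariates, and gave 27 comparisons, each adjusted by the Benjamini-Hochberg method. The script was tested on simulated data. Summaries used pandas 2.3.3 (Python 3.11.15), and plots matplotlib 3.10.9. The number of arrays, 3 a group, limits the precision.

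The 6 genes and the gene lists were chosen with earlier results of these data known. By the rule fixed for naming, the 6 genes are tested in every comparison, other photorespiration genes are named where called, and for likeness the 3 single-gene probe sets with a mean log2 of at least 6 and the highest Pearson's r over group means. BASS6 and the genes named from the other lists, among them SBPASE (SBP in the list), were named after their values were seen.

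No arrays held identical values, and within groups r was 0.984 to 0.997. Same-numbered arrays were checked for pairing by the correlation of their deviations. All 3 correlations were over 0.1 only for cat2 against Col0 at SD4 (0.625, 0.312 and 0.629) and at LD4 (0.442, 0.446 and 0.219), and the labels do not say what equal numbers share. Alternatives were a replicate block, fits of only the groups compared, a filter on mean log2 below 5, quantile normalization, median centring, a trended and robust eBayes, array weights, each array left out, and an adjusted p below 0.01. Weights estimated gene by gene, the block in a fit of only the groups compared, and the 25S, actin and BioB controls as covariates were chosen after seeing the data.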

Additional observations from a re-analysis of the deposited data

Results flagged for a closer look

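The response of HPR to 2 days of air in short days differed between the genotypes by a test of the difference itself, but this call was not stable. The change in cat2 was larger than that in Col0 by 0.50 ± 0.15 log2 units (adjusted p = 0.0497, limma), with 0.43 in cat2 and −0.08 in Col0. All 3 cat2 arrays in air lay above those at hCO2, as they did for 12.2% of all probe sets, and the Col0 arrays overlapped. The call lies at the threshold: it was not called in 11 of 12 fits that left out 1 array compared, nor in 6 of 12 other fits, which include the replicate block and the 25S, actin and BioB covariates (adjusted p up to 0.313).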

How the results depend on the processing

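No gene's called difference reversed under any alternative run. Called differences kept in every alternative were AT1G11860 between cat2 LD2 and hCO2 (−0.42 to −0.61) and HPR between cat2 LD2 and SD2 (−0.40 to −0.53), the stricter threshold included. Over all single-gene differences, leaving out 1 of the arrays compared gained 5 calls and lost 25, the alternatives other than the stricter threshold gained 31 and lost 19, and the stricter threshold lost 5. Counts of calls over the 6 genes that moved by more than 1.5 times are given next. The other counts, with all arrays, ran from 2 to 4 for air in cat2 (2 with only the groups compared or at an adjusted p below 0.01, 4 with actin or BioB) and from 2 to 3 for day length. With array weights, an estimate that did not converge and gave cat2 hCO2 replicate 1 a weight of 25.9, air in Col0 had 2 calls in place of 0, air in cat2 12 in place of 3, genotype 5 in place of 1, day length 5 in place of 3 and the genotype difference in the response to air 2 in place of 1. For cat2 in air against hCO2, these weights called 4408 to 5956 of 22746 probe sets higher and 4438 to 5735 lower. Without weights the counts were 1380 to 2039 and 1432 to 2557. For cat2 against Col0 at hCO2 they called 4176 higher and 3518 lower, against 2 and 1 without. For Col0 LD4 against hCO2 they called fewer than the fit without weights. With weights estimated gene by gene the counts for air were 1 in Col0 and 7 in cat2, and 5 for day length. With the replicate block the genotype difference in the response to air had 0 calls (HPR, adjusted p = 0.0638) and HPR between cat2 LD4 and SD4 was lost (adjusted p = 0.0551). Of the comparisons whose numbers passed the pairing check, cat2 against Col0 at SD4 and LD4, none had a member called with or without the block. The block in the fit of all groups changed no other call. With the block and only the groups compared, air in cat2 had 1 call and genotype 0, and HPR was not called in cat2 at SD2 (adjusted p = 0.0638) or SD4 (adjusted p = 0.146) against hCO2, nor at SD2 against Col0. The 25S control as a covariate left genotype with 0 calls, the actin control gave day length 5, and each of the 25S, actin and BioB covariates, median centring, and eBayes with trend and robust options left 0 for the genotype difference in the response to air. At an adjusted p below 0.01, genotype had 0, day length 1 and the difference in the response to air 0. With single arrays left out, calls ran from 0 to 1 for air in Col0 (1 without Col0 LD4 replicate 2), 1 to 4 for air in cat2 (1 without cat2 hCO2 replicate 2), 0 to 1 for genotype (0 without Col0 SD2 replicate 3 or cat2 SD2 replicate 1), 1 to 8 for day length (8 without Col0 LD4 replicate 2, 1 without cat2 SD2 replicate 2) and 0 to 1 for the difference in the response to air. The cause was not tested, and the shares of all probe sets called in the fits without 1 array are not given here. Counts for day 4 against day 2 and for genotype by day length stayed at 0 in every alternative run. Signals were well above the lowest on the arrays for all 6 genes.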

Other observations

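Another probe set lists both HPR and AT5G05370 and was used for neither. Its signal in cat2 was 9.57 ± 0.11 at hCO2, 9.23 ± 0.13 at SD2, 9.30 ± 0.28 at SD4, 9.83 ± 0.16 at LD2 and 9.43 ± 0.15 at LD4. Its means thus stood lower at SD2 and SD4 than at hCO2, where the probe set of HPR alone stood higher, and higher at LD2. Its cat2 arrays overlapped with those of hCO2 at SD4 and LD2 but not at SD2, and no test of these differences is given here. In Col0 its means lay between 9.22 at LD4 and 9.51 at hCO2. Which of the 2 genes it measures was not tested.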
